A study of Mus musculus with 37 samples.

Results

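Fatty acid oxidation and the target genes of the PPAR receptors were followed through 35 genes, of the 30892 genes in the table of cardiac fibroblasts (CFs), the 20158 in the table of neonatal rat ventricular myocytes (NRVMs) and the 31053 in the single-cell tables. They comprise 3 regulators (Ppara, Ppard, Ppargc1a), lipid droplet and lipid uptake genes (Angptl4, Plin2, Plin5, Fabp3, Acsl1) and the carnitine shuttle (Cpt1a, Cpt1b, Cpt2, Slc25a20). Also included are the enzymes of the mitochondrial spiral and its auxiliary steps and the peroxisomal enzymes Acaa1a and Ehhadh. The others are 2 thioesterases, 2 pyruvate dehydrogenase kinases, 2 uncoupling proteins and Mlycd. The 35 genes were chosen by their values in these same data and no threshold was stated, so the calls given for them describe the fit over all genes and are no evidence independent of that choice. All 35 genes were in the CF table, and 33 had enough counts to be tested. All but Eci2, 34 genes, were in the table of NRVMs, and 32 of these were tested. Plin5 and Ucp3 failed the filter on low counts in CFs, and Ucp3 and Acot1 failed it in NRVMs.

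The study asked how cardiac muscle cells act on the nonmuscle cells around them when ENPP1, an enzyme on the cell surface that cleaves extracellular ATP to AMP, is present together with ATP. CFs were SV40-immortalized cardiac fibroblasts of wild-type C57BL/6 mice, kept without serum and then given myocyte-conditioned medium (MCndM) for 24 h or 48 h, the medium having been collected from NRVMs that had received vehicle, ENPP1, ATP, ENPP1+ATP or AMP (2 libraries in each of 10 groups). NRVMs of wild-type Sprague-Dawley rats were sequenced after 24 h in conditioned medium, with the same 5 names of media in their labels (3 libraries in each of 5 groups). Single-cell libraries were made from nonmyocytes of C57BL/6 hearts at 7 days after myocardial infarction, 1 from control animals and 1 from ENPP1CKO animals, in which tamoxifen-induced Col1a2CreERT removes both floxed Enpp1 alleles from Col1a2-expressing cells and not from every cell of the heart. The study reports cell death of CFs given ENPP1+ATP or AMP MCndM, and cell-cycle arrest of CFs given ENPP1+ATP MCndM. It reports no such death of cardiomyocytes given ENPP1+ATP MCndM. The part of dying or surviving cells in the CF values with these media was not tested at either time. The immortalized CFs stand in for fibroblasts of the heart, and the number of hearts pooled in a single-cell library is not given in the sources used here. The study describes its replicates as biological, but the labels do not say which libraries of a group came from separate cultures, so the p-values measure the spread between these libraries.

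Long-chain fatty acids are activated to acyl-CoA, moved into mitochondria by the carnitine shuttle and shortened there in a repeating spiral of dehydrogenation, hydration, a second dehydrogenation and thiolysis. Its electrons pass to the respiratory chain. The PPARs are nuclear receptors that bind fatty acids, pair with RXR on direct repeats of a short motif and raise the transcription of many of these genes, with PGC-1 alpha (Ppargc1a) as a coactivator. The heart muscle cell draws much of its energy from this route.

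Total counts were 32184799 to 115824659 in CF libraries and 13481389 to 16977980 in NRVM libraries. Levels are counts per 1000000 counts of a library (CPM) scaled by TMM factors, and calls are edgeR quasi-likelihood tests with a Benjamini-Hochberg adjusted p under 0.05 over 17879 genes in CFs and 13461 in NRVMs. As a check of the labels, 10 fibroblast markers summed to 2642 to 7219 CPM over all CF libraries, 10 cardiomyocyte markers to 13.4 to 27.0 CPM and 6 adipocyte markers to under 1 CPM. The fibroblast sum was 6744 to 7219 CPM in the vehicle CFs of both times and 2642 to 3968 CPM with ENPP1+ATP or AMP MCndM. A macrophage list moved with the same media, from 10.9 to 12.7 CPM with vehicle to 31.9 to 78.9 CPM, with C1qb or Fcgr1 at 0 in some of those groups. Of 6 tested smooth muscle or pericyte markers 4 were called higher in each CF comparison of these media with vehicle and 0 or 1 lower, with medians of 0.485 and 0.615 on the log2 scale at 24 h and 0.948 and 1.01 at 48 h for ENPP1+ATP and AMP. Of 6 mesothelial markers 2 or 3 were called higher and 0 or 1 lower. In NRVM libraries the 9 cardiomyocyte markers in the table summed to 27065 to 27937 CPM with vehicle, 25387 to 26549 with ENPP1+ATP and 28572 to 30685 with AMP, and the 9 fibroblast markers to 24762 to 26150 CPM with vehicle, 8288 to 8753 with ENPP1+ATP and 11536 to 12314 with AMP. With AMP 5 of 9 tested cardiomyocyte markers in NRVMs were called higher and 1 lower (median log2 fold change 0.26), 4 of 9 endothelial markers higher and 1 lower, and 3 of 5 macrophage markers higher and 0 lower. With ENPP1+ATP these counts were 4 and 3 (median 0.03), 2 and 1, and 2 and 1. The part of these shifts in the results was not tested, and in bulk RNA fewer cells of a type and less RNA per cell cannot be told apart.

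The promoters of Plin2, Pdk4 and Cpt1a are shown because these are, after Angptl4, the members that rose most in CFs at 48 h. The 250 bases before the start site of the RefSeq table are sequence of mouse build GRCm38.p6 on the strand of the gene, at chr4:86670060-86670309 (Plin2, minus strand), chr6:5496279-5496528 (Pdk4, minus strand) and chr19:3323051-3323300 (Cpt1a, plus strand). The start used for Cpt1a lies inside the gene as GENCODE annotates it, at chr19:3322334-3385733, and that of Pdk4 lies near its first base. Capitals mark the only match to the letters AGGTCANAGGTCA, the direct repeat to which PPAR and RXR bind, searched on both strands with up to 2 mismatches in its 12 fixed bases.
Plin2: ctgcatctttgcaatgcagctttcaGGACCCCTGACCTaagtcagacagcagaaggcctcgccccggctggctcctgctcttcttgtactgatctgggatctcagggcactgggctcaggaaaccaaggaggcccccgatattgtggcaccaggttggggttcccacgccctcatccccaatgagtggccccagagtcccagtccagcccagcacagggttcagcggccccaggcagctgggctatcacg
Pdk4: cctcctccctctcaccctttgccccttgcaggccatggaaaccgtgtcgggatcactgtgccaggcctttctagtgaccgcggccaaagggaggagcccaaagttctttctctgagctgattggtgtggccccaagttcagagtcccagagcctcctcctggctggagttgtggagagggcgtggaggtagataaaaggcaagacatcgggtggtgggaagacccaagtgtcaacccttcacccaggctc
Cpt1a: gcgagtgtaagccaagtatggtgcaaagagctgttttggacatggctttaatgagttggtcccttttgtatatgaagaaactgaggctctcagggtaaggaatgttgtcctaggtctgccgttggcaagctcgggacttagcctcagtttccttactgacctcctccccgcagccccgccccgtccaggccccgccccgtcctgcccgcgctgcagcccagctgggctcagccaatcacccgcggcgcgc
The Plin2 match has 2 mismatches, reads on the strand opposite to that of the gene and begins 225 bases before the start site. Of 32851 windows of this length, 1063 (3.24%) held such a match and 11 an exact one. Among the members 31 had a window in the search (Angptl4, Cpt1b, Acaa2 and Decr1 had none), and Plin2, Ucp3 and Etfa held a match. No match in the windows of Pdk4 and Cpt1a says only that these letters are not in these 250 bases.

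In CFs the module did not move as a block. At 24 h of ENPP1+ATP MCndM 12 of the 33 tested members were called higher than with vehicle and 9 lower, where 23.9% and 25.3% of all genes tested were called higher and lower. With AMP MCndM 10 were called higher and 10 lower (25.3% and 27.5% of all genes). At 48 h the counts were 11 higher and 9 lower with ENPP1+ATP (20.8% and 24.4% of all genes) and 12 higher and 7 lower with AMP (21.1% and 22.9% of all genes). The median member differed from vehicle by 0.05, -0.10, 0.06 and 0.09 on the log2 scale in these 4 comparisons, against medians of -0.0046, -0.0058, -0.03 and -0.03 over all genes. Both media are compared with the same vehicle libraries, so their values stand side by side and are not 2 separate observations. The lower count at 48 h was 5 without vehicle replicate 2 for ENPP1+ATP, and for AMP it was 3 without AMP replicate 2 and 4 without vehicle replicate 1 or 2.

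At least 2-fold higher calls numbered 1 at 24 h with either medium (Angptl4) and 5 at 48 h with either medium (Angptl4, Plin2, Pdk4, Cpt1a and Acadl), of 33 tested. Of all genes 5.87% with ENPP1+ATP and 7.71% with AMP were called at least 2-fold higher at 24 h, and 5.29% and 5.34% at 48 h. At least 2-fold lower calls numbered 4 and 3 at 24 h (5.08% and 6.17% of all genes) and 2 and 1 at 48 h (5.54% and 4.7% of all genes), with ENPP1+ATP and AMP respectively. In the contrast of the 48 h effect with the 24 h effect, 14 members were called for ENPP1+ATP (30% of all genes), 11 of them greater and 3 smaller at 48 h, beside 15.1% and 14.9% of all genes. For AMP 19 were called (31.7% of all genes), 18 greater and 1 smaller, beside 17.3% and 14.4% of all genes. The members with a greater value at 48 h include Fabp3 and Decr1, which were lower than vehicle at 24 h and nearer to it at 48 h.

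**Figure D1:**
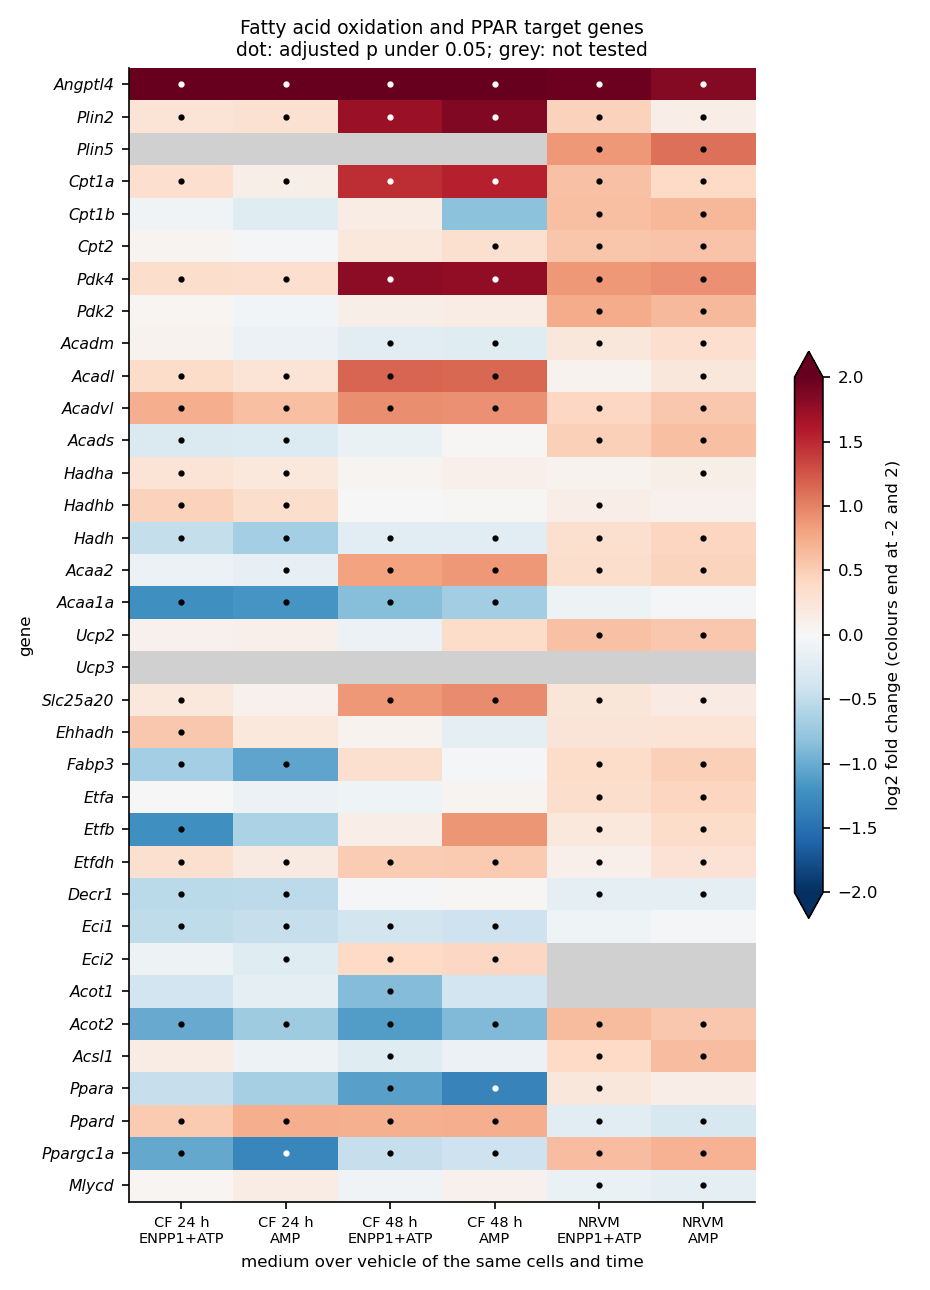
Log2 fold change of each of the 35 genes (rows) with ENPP1+ATP or AMP medium over vehicle in CFs at 24 h, CFs at 48 h and NRVMs (columns), coloured from blue (lower) to red (higher) with colours ending at -2 and 2. A dot marks an edgeR adjusted p under 0.05 and grey a gene that was not tested, and the NRVM columns hold 24 higher and 3 lower calls each where the CF columns are split.

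In NRVMs most tested members were called higher, the larger number of them by under 1.5-fold. With ENPP1+ATP 24 of 32 tested members were called higher and 3 lower than with vehicle, where 28.6% and 27.4% of all genes were called, and with AMP 24 were called higher and 3 lower (29.2% and 28% of all genes). The median member was 0.35 and 0.41 higher on the log2 scale, against 0.01 and 0.01 for all genes. Of the 24 higher calls 16 were under 1.5-fold with either medium (19.7% and 19.9% of all genes), and 1 with ENPP1+ATP and 2 with AMP reached 2-fold (3.98% and 4.04% of all genes). All 3 lower calls, Ppard, Decr1 and Mlycd, were under 1.5-fold with both media (16.2% and 16.5% of all genes). The lower count with ENPP1+ATP was 1 without ENPP1+ATP replicate 2 or 3 or vehicle replicate 3.

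Angptl4, a secreted inhibitor of lipoprotein lipase and a PPAR target (chr17:33773750-33781830 in GRCm38, minus strand), moved most. In CFs at 24 h it was at 0.955 and 0.793 CPM in the vehicle libraries, 7.78 and 8.01 CPM with ENPP1+ATP and 9.92 and 11.1 CPM with AMP. At 48 h it was at 1.01 and 0.936 CPM with vehicle, 124 and 116 CPM with ENPP1+ATP and 134 and 120 CPM with AMP. Neither medium overlapped vehicle at either time, and every 48 h library of the 2 media lay above every 24 h library. The log2 fold change was 3.12 ± 0.16 (SE) at 24 h and 6.94 ± 0.14 at 48 h for ENPP1+ATP (edgeR adjusted p = 4.35e-14 and 2.59e-21), and 3.54 ± 0.15 and 7.02 ± 0.14 for AMP (edgeR adjusted p = 1.12e-15 and 3.13e-21). The 48 h effect exceeded the 24 h effect by 3.82 ± 0.25 for ENPP1+ATP and by 3.47 ± 0.25 for AMP on the log2 scale. Per kilobase of exon, Angptl4 ranked 32 of the 35 genes in vehicle CFs at 48 h and 5 with ENPP1+ATP or AMP. ATP MCndM gave 3.87 and 3.75 CPM at 24 h and 3.90 and 2.95 CPM at 48 h, so that its level stayed near the same value at both times while that with ENPP1+ATP did not. ENPP1 alone gave 0.637 and 1.19 CPM at 24 h and 1.26 and 0.928 CPM at 48 h, overlapping vehicle. Absence of overlap is a weak sign by itself with 2 libraries per CF group. Between ENPP1 alone and vehicle 12 of 33 tested members did not overlap at 24 h and 12 at 48 h, and 0 were called. The share of all genes without overlap was not counted.

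In NRVMs Angptl4 was close to the limit of what the libraries count. It was at 0.344, 0.276 and 0.532 CPM with vehicle, 1.76, 1.98 and 0.775 CPM with ENPP1+ATP and 0.921, 1.06 and 2.17 CPM with AMP. Both media lay above vehicle without overlap, with log2 fold changes of 1.96 ± 0.47 and 1.83 ± 0.47 (edgeR adjusted p = 0.000395 and 0.000966). The ATP libraries, at 0.982, 0.772 and 0.515 CPM, overlapped vehicle.

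**Figure D2:**
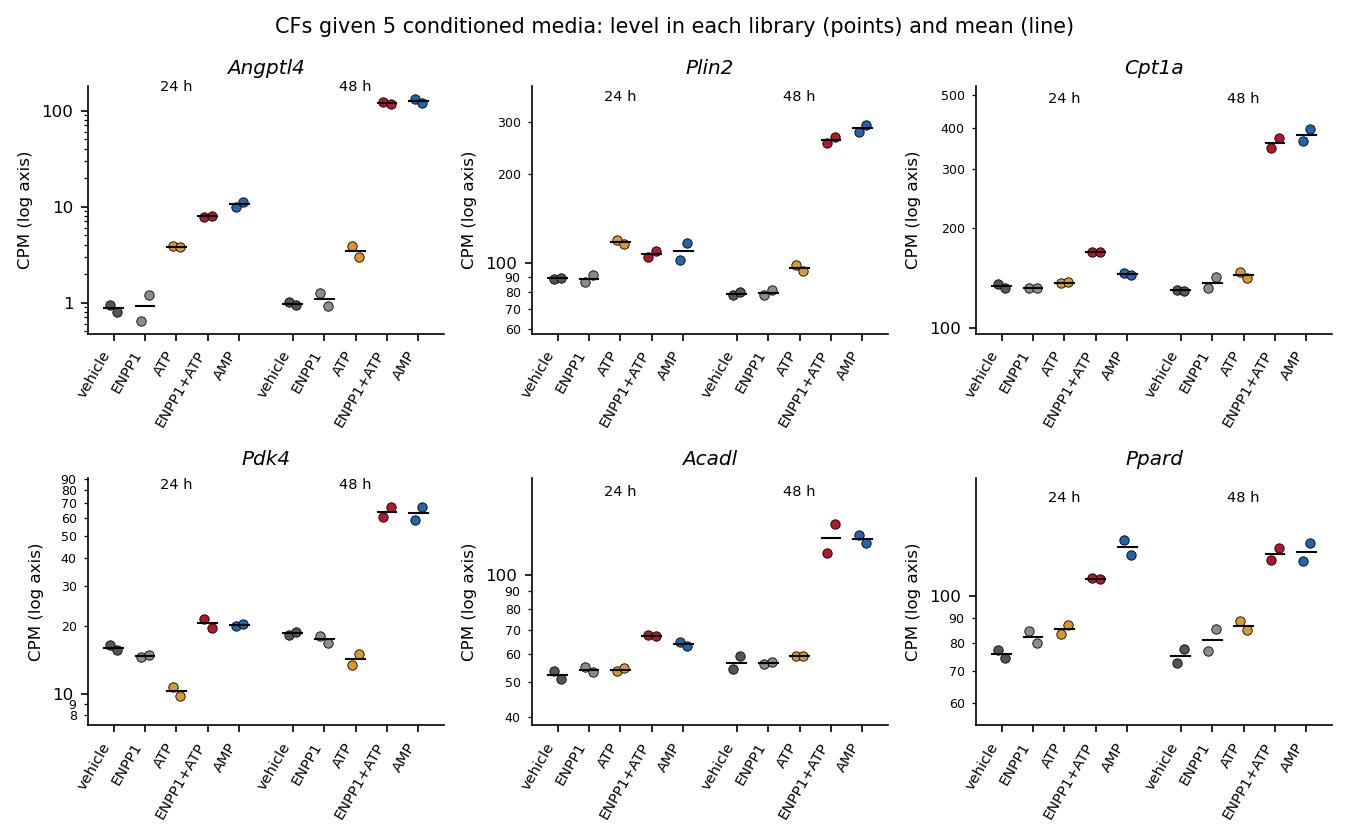
CPM on a log axis of 6 genes in each of the 20 CF libraries (points), by medium and time, with the mean of each group as a line. Angptl4, Plin2, Cpt1a, Pdk4 and Acadl stand highest with ENPP1+ATP and AMP MCndM at 48 h, while Ppard had already risen at 24 h.

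Plin2, which coats lipid droplets in most cell types, rose little at 24 h and more at 48 h in CFs. At 24 h it was at 88.4 and 89.3 CPM with vehicle, 105 and 110 CPM with ENPP1+ATP and 103 and 117 CPM with AMP, neither medium overlapping vehicle. By 48 h it was at 78.1 and 79.6 CPM with vehicle, 254 and 267 CPM with ENPP1+ATP and 278 and 294 CPM with AMP. The fold change with ENPP1+ATP was 1.21 at 24 h and 3.31 at 48 h, and with AMP 1.24 and 3.62 (edgeR adjusted p = 0.000182, 6.92e-18, 3.77e-05 and 1.62e-18). At 24 h the ATP libraries, at 120 and 116 CPM, stood above those with ENPP1+ATP, and Plin2 was lower with ENPP1+ATP than with ATP by 0.14 on the log2 scale (edgeR adjusted p = 0.0435). At 48 h ATP gave 98.8 and 94.0 CPM, far under ENPP1+ATP. Per kilobase of exon, Plin2 was the highest of the 35 genes in CFs at 48 h of ENPP1+ATP or AMP and ranked 4 with vehicle.

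In NRVMs Plin2 was at 80.1 to 89.5 CPM with vehicle, 113 to 124 CPM with ENPP1+ATP and 92.5 to 94.8 CPM with AMP. ENPP1+ATP raised it 1.37-fold (edgeR adjusted p = 7e-11) and AMP 1.09-fold (edgeR adjusted p = 0.0229). The AMP call did not hold without AMP replicate 1 or 2 or vehicle replicate 2 (edgeR adjusted p = 0.0560, 0.0803 and 0.185) nor without the filter on low counts (edgeR adjusted p = 0.055). Plin2 was lower with AMP than with ENPP1+ATP by 0.33 on the log2 scale (edgeR adjusted p = 2.63e-06). Plin5, the lipid droplet protein of oxidative tissue, was at 2.06, 1.45 and 2.21 CPM with vehicle, 2.89, 3.64 and 3.81 CPM with ENPP1+ATP and 5.40, 3.77 and 3.01 CPM with AMP. Neither medium overlapped vehicle, and the rises were 1.82-fold and 2.14-fold (edgeR adjusted p = 0.00544 and 0.000398). In CFs Plin5 was under 0.1 CPM in every library.

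Cpt1a, the isoform of carnitine palmitoyltransferase 1 that most tissues use to commit fatty acids to mitochondria, followed Plin2 in CFs. At 24 h it was at 135 and 132 CPM with vehicle, 169 and 169 CPM with ENPP1+ATP and 146 and 144 CPM with AMP. The 48 h libraries were at 130 and 130 CPM with vehicle, 348 and 373 CPM with ENPP1+ATP and 365 and 395 CPM with AMP. No vehicle library reached either medium, and the fold change grew from 1.26 to 2.78 with ENPP1+ATP and from 1.08 to 2.93 with AMP (edgeR adjusted p = 2.28e-06, 1.17e-17, 0.0437 and 4.08e-18). The AMP call at 24 h was lost when any of the 4 libraries was left out (edgeR adjusted p = 0.085 to 0.25) and without the filter on low counts (edgeR adjusted p = 0.35). Cpt1a was 0.22 lower with AMP than with ENPP1+ATP at 24 h on the log2 scale (edgeR adjusted p = 0.00749), and at 48 h the difference of 0.08 was not called. ENPP1, ATP and vehicle libraries lay between 130 and 147 CPM at both times.

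Of the other carnitine shuttle genes in CFs, Slc25a20, the carnitine-acylcarnitine carrier of the inner membrane, was at 28.2 and 27.6 CPM with vehicle at 24 h, 32.4 and 32.3 CPM with ENPP1+ATP and 29.4 and 29.9 CPM with AMP. After 48 h it was at 29.3 and 28.6 CPM with vehicle, 56.5 and 49.1 CPM with ENPP1+ATP and 56.5 and 55.5 CPM with AMP, which is 1.82-fold and 1.94-fold higher (edgeR adjusted p = 1.61e-10 and 2.77e-11). Cpt2, which remakes acyl-CoA inside the mitochondrion, was called only with AMP at 48 h, at 1.25-fold (edgeR adjusted p = 0.00672), and that call was lost without AMP replicate 1 (edgeR adjusted p = 0.106). With ENPP1+ATP at 48 h the Cpt2 fold was 1.16 (edgeR adjusted p = 0.0573, DESeq2 adjusted p = 0.0480). Cpt1b, the muscle isoform, stayed under 1 CPM in every CF library and was called in no CF comparison with vehicle, and 81.4% of its exon bases are shared with Gm44502 on the same strand.

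In NRVMs the muscle isoform rose with the liver isoform. Cpt1b was at 191, 173 and 204 CPM with vehicle, 301, 271 and 292 CPM with ENPP1+ATP and 303, 313 and 286 CPM with AMP, neither medium overlapping vehicle. The rises were 1.52-fold and 1.59-fold (edgeR adjusted p = 5.24e-13 and 3.83e-14). Cpt1a went from 102, 103 and 97.3 CPM with vehicle to 156, 155 and 141 CPM with ENPP1+ATP and 138, 134 and 127 CPM with AMP, and was the higher of the 2 media with ENPP1+ATP by 0.18 on the log2 scale (edgeR adjusted p = 0.00991). Cpt2 rose 1.47-fold and 1.48-fold and Slc25a20 1.19-fold and 1.12-fold with ENPP1+ATP and AMP. All 4 genes of the shuttle were thus called higher with both media in NRVMs, although the AMP call of Slc25a20 was lost without AMP replicate 1 or 2 or vehicle replicate 1 (edgeR adjusted p = 0.110, 0.102 and 0.0759).

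The acyl-CoA dehydrogenases take the first step of the spiral and divide by chain length. In CFs Acadvl, for very long chains, was at 59.3 and 58.2 CPM with vehicle at 24 h, 98.5 and 96.3 CPM with ENPP1+ATP and 95.1 and 84.3 CPM with AMP, and at 48 h at 62.1 and 60.1 CPM with vehicle, 117 and 116 CPM with ENPP1+ATP and 119 and 111 CPM with AMP. It was higher by 1.66-fold and 1.52-fold at 24 h and by 1.91-fold and 1.89-fold at 48 h, with no overlap with vehicle. Exons of Dvl2 on the opposite strand cover 42.9% of the Acadvl exon bases, so part of these counts may belong to either gene if strand was not used. Acadl, for long chains, rose from 53.9 and 51.2 CPM with vehicle to 67.7 and 67.4 CPM with ENPP1+ATP and 64.9 and 63.1 CPM with AMP at 24 h. At 48 h it rose from 54.5 and 59.1 CPM with vehicle to 115 and 139 CPM with ENPP1+ATP and 130 and 123 CPM with AMP, 2.23-fold and 2.22-fold (edgeR adjusted p = 2.47e-13 and 2.31e-13). Acadm, for medium chains, fell by 0.20 and 0.24 on the log2 scale at 48 h and was not called at 24 h. Acads, for short chains, fell by 0.29 and 0.28 at 24 h and was not called at 48 h. Without single libraries of ENPP1+ATP, AMP or vehicle the Acadm calls were lost in 4 of 4 and 3 of 4 cases (edgeR adjusted p = 0.0601 to 0.182), the exception being AMP replicate 1. The long-chain enzymes were thus called higher and the medium- and short-chain enzymes not higher in any CF comparison of these media with vehicle.

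In NRVMs no such split by chain length was measured. Acads rose 1.38-fold with ENPP1+ATP and 1.52-fold with AMP, Acadvl 1.34-fold and 1.46-fold, and Acadm 1.17-fold and 1.27-fold. Acadl rose 1.17-fold with AMP (edgeR adjusted p = 7.4e-06), at 343, 348 and 325 CPM against 288, 288 and 291 CPM with vehicle, and was at 303, 298 and 308 CPM with ENPP1+ATP (edgeR adjusted p = 0.16).

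Hadha and Hadhb are the 2 subunits of the mitochondrial trifunctional protein, which takes long chains through the remaining steps, and their genes lie head to head with overlapping 250-base promoter windows. In CFs at 24 h Hadhb was at 38.9 and 38.3 CPM with vehicle, 52.4 and 54.5 CPM with ENPP1+ATP and 49.1 and 49.8 CPM with AMP, and Hadha at 138 and 132, 164 and 162, and 165 and 148 CPM. Both were called higher with both media, Hadhb 1.38-fold and 1.28-fold and Hadha 1.21-fold and 1.16-fold. At 48 h the Hadhb libraries overlapped across media, at 41.5 and 42.1 CPM with vehicle, 42.5 and 40.4 CPM with ENPP1+ATP and 45.1 and 39.8 CPM with AMP, and neither subunit was called. The effect on Hadhb was smaller at 48 h than at 24 h by 0.48 ± 0.09 for ENPP1+ATP and by 0.33 ± 0.09 for AMP on the log2 scale (edgeR adjusted p = 0.000189 and 0.00505). This is the reverse of the course of Angptl4, Plin2, Cpt1a and Pdk4. In NRVMs Hadhb rose 1.09-fold with ENPP1+ATP and Hadha 1.08-fold with AMP, calls that were lost without ENPP1+ATP replicate 3 for Hadhb (edgeR adjusted p = 0.0586) and without AMP replicate 1 or 2 or vehicle replicate 2 for Hadha (edgeR adjusted p = 0.0574 to 0.173).

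In CFs at 48 h Acaa2 rose and Acaa1a fell with both media. Acaa2, which closes the mitochondrial spiral, was at 26.0 and 26.4 CPM with vehicle at 24 h, 24.9 and 23.2 CPM with ENPP1+ATP and 24.7 and 22.3 CPM with AMP. The AMP value was called lower by 0.16 (edgeR adjusted p = 0.0492), a call lost with DESeq2 (adjusted p = 0.139) and without AMP replicate 2 or either vehicle library (edgeR adjusted p = 0.109 to 0.407). At 48 h Acaa2 was at 26.5 and 25.4 CPM with vehicle, 44.4 and 46.8 CPM with ENPP1+ATP and 48.4 and 46.7 CPM with AMP, 1.76-fold and 1.83-fold higher (edgeR adjusted p = 3.14e-10 and 7.82e-11). Acaa1a, the peroxisomal thiolase, was at 76.1 and 77.1 CPM with vehicle at 24 h, 31.5 and 33.9 CPM with ENPP1+ATP and 28.4 and 38.9 CPM with AMP, and at 48 h at 71.4 and 75.1, 40.3 and 41.2, and 43.9 and 47.0 CPM. It fell by 1.23 ± 0.10 and 1.17 ± 0.10 at 24 h and by 0.85 ± 0.10 and 0.69 ± 0.10 at 48 h on the log2 scale, with no overlap with vehicle. Of its 50-base words 12.4% also occur in Acaa1b, which rose in the same libraries, so reads could be shared between the 2 copies. Hadh, the short-chain hydroxyacyl-CoA dehydrogenase, fell by 0.48 and 0.67 at 24 h and by 0.22 and 0.21 at 48 h. The 48 h calls of Hadh were lost with DESeq2 (adjusted p = 0.0563 and 0.0617), without ENPP1+ATP replicate 1 or vehicle replicate 2 for ENPP1+ATP (edgeR adjusted p = 0.110 and 0.118), and without any one of the 4 libraries for AMP (edgeR adjusted p = 0.0556 to 0.148). In NRVMs Acaa2 rose 1.27-fold and 1.36-fold and Hadh by 0.32 and 0.43 on the log2 scale, and Acaa1a was not called.

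Etfa, Etfb and Etfdh pass electrons from the dehydrogenases to ubiquinone. In CFs Etfdh was at 59.8 and 56.8 CPM with vehicle at 24 h, 72.6 and 73.0 CPM with ENPP1+ATP and 66.4 and 65.3 CPM with AMP, and at 48 h at 63.3 and 63.7, 89.1 and 90.8, and 92.2 and 90.2 CPM. It rose 1.25-fold and 1.13-fold at 24 h and 1.42-fold and 1.44-fold at 48 h, and the 24 h AMP call was lost without vehicle replicate 2 (edgeR adjusted p = 0.0973) or the filter on low counts (edgeR adjusted p = 0.121). Etfa, the highest of the 35 genes per kilobase in vehicle CFs, was called in none of these comparisons and lay between 51.4 and 61.2 CPM in all 20 libraries. Etfb was under 2 CPM in every CF library while the single-cell libraries held 116 to 138 CPM of it in fibroblast-like, macrophage-like and endothelial-like cells, and 53.0% of its exon bases lie under Gm45233 on the same strand, so its CF values are uncertain. It was called lower with ENPP1+ATP at 24 h, by 1.23 ± 0.43 (edgeR adjusted p = 0.0210), and not without ENPP1+ATP replicate 1 or vehicle replicate 2 (edgeR adjusted p = 0.206 and 0.0986). In NRVMs all 3 genes were called higher with both media, Etfa 1.27-fold and 1.34-fold, Etfb 1.16-fold and 1.29-fold and Etfdh 1.08-fold and 1.22-fold. The ENPP1+ATP call of Etfdh was lost with DESeq2 (adjusted p = 0.0771) and without ENPP1+ATP replicate 2 or 3 or any vehicle library (edgeR adjusted p = 0.0572 to 0.123).

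**Figure D3:**
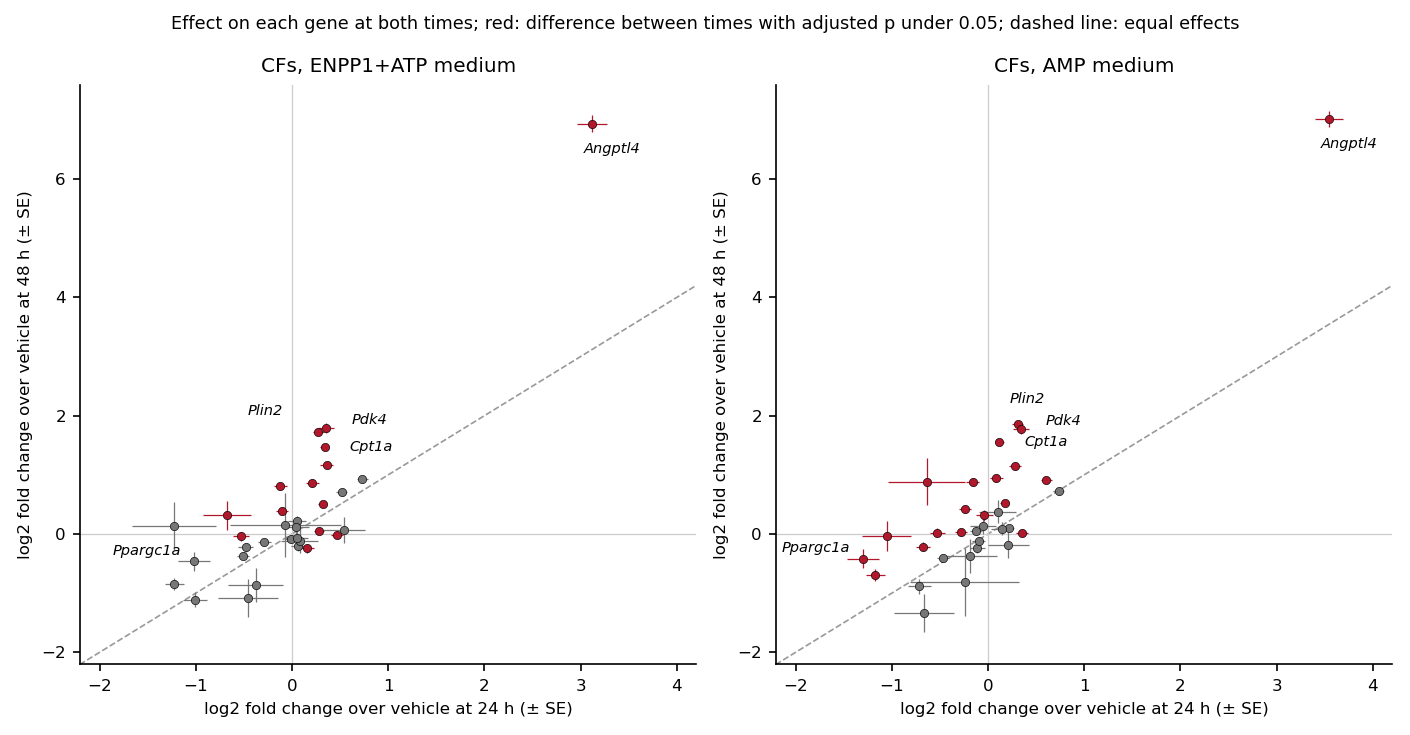
Log2 fold change over vehicle at 24 h (x axis) and at 48 h (y axis) with its SE, for the 33 genes tested in CFs, with ENPP1+ATP MCndM on the left and AMP MCndM on the right. Red points (14 and 19) have a difference between times with an edgeR adjusted p under 0.05, and Angptl4, Plin2, Pdk4 and Cpt1a lie above the dashed line of equal effects.

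The auxiliary enzymes Decr1, Eci1 and Eci2 handle unsaturated intermediates. In CFs Decr1, the 2,4-dienoyl-CoA reductase, fell by 0.53 and 0.53 at 24 h on the log2 scale and was not called at 48 h, where its 2 media and vehicle lay between 26.8 and 29.0 CPM. Eci1, an enoyl-CoA isomerase, fell at both times, by 0.51 and 0.47 at 24 h and by 0.37 and 0.41 at 48 h. Eci2 fell by 0.24 with AMP at 24 h and rose 1.31-fold and 1.33-fold at 48 h, from 45.7 and 45.1 CPM with vehicle to 57.3 and 62.0 CPM with ENPP1+ATP and 63.5 and 57.8 CPM with AMP. Ehhadh, the peroxisomal bifunctional enzyme, was at 2.43 and 2.498 CPM with vehicle and 3.87 and 3.28 CPM with ENPP1+ATP at 24 h, a rise of 1.45-fold (edgeR adjusted p = 0.0408) that was lost without ENPP1+ATP replicate 1 or either vehicle library (edgeR adjusted p = 0.12 to 0.24) and without the filter on low counts (edgeR adjusted p = 0.11). In NRVMs Decr1 fell by 0.18 and 0.20, with vehicle at 67.4, 57.8 and 66.6 CPM, ENPP1+ATP at 61.8, 53.9 and 53.4 CPM and AMP at 56.0, 59.1 and 51.8 CPM, so that the groups overlapped. Without ENPP1+ATP replicate 2 or 3 or vehicle replicate 1 or 3 the first of these calls was lost (edgeR adjusted p = 0.069 to 0.080), and without AMP replicate 3 the second (edgeR adjusted p = 0.058).

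Fabp3 carries fatty acids in the cytosol of heart muscle, and Acsl1 activates them. Fabp3 was low in CFs, at 2.64 and 2.45 CPM with vehicle at 24 h, 1.59 and 1.61 CPM with ENPP1+ATP and 0.900 and 1.49 CPM with AMP, which is 0.68 and 1.06 lower on the log2 scale (edgeR adjusted p = 0.0295 and 0.00102). The ENPP1+ATP call was lost without any one of the 4 libraries (edgeR adjusted p = 0.060 to 0.14), and 29.2% of the 50-base words of Fabp3 also occur in Fabp3-ps1. At 48 h Fabp3 overlapped vehicle with both media. In NRVMs it was at 506, 479 and 491 CPM with vehicle, 650, 642 and 608 CPM with ENPP1+ATP and 704, 695 and 650 CPM with AMP, 1.29-fold and 1.39-fold higher (edgeR adjusted p = 9.22e-10 and 6.87e-13). Acsl1 was at 489, 456 and 505 CPM with vehicle in NRVMs, 644, 617 and 640 CPM with ENPP1+ATP and 741, 784 and 705 CPM with AMP. It rose 1.31-fold and 1.54-fold, and AMP exceeded ENPP1+ATP by 0.23 on the log2 scale (edgeR adjusted p = 0.000263). In CFs Acsl1 fell by 0.24 with ENPP1+ATP at 48 h (edgeR adjusted p = 0.00932), a call lost without ENPP1+ATP replicate 1 or vehicle replicate 2 (edgeR adjusted p = 0.211 and 0.0629), and was not called with AMP.

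The thioesterases Acot1 (cytosolic) and Acot2 (mitochondrial) release free fatty acids from acyl-CoA. In CFs Acot2 was at 22.4 and 26.3 CPM with vehicle at 24 h, 10.2 and 13.9 CPM with ENPP1+ATP and 15.1 and 14.4 CPM with AMP, and at 48 h at 24.5 and 28.2, 12.6 and 11.7, and 15.05 and 13.5 CPM. It fell by 1.01 ± 0.13 and 0.71 ± 0.12 at 24 h and by 1.12 ± 0.13 and 0.88 ± 0.12 at 48 h on the log2 scale, with no overlap with vehicle. Acot1 stayed under 2 CPM and was called lower only with ENPP1+ATP at 48 h, by 0.86 (edgeR adjusted p = 0.0193). That call was lost without ENPP1+ATP replicate 2 or vehicle replicate 2 (edgeR adjusted p = 0.0826 and 0.145), and 24.6% of the 50-base words of Acot2 also occur in Acot1, so the 2 genes may exchange reads. In NRVMs Acot2 went the other way, from 13.5, 13.9 and 9.96 CPM with vehicle to 19.1, 19.8 and 19.1 CPM with ENPP1+ATP and 17.4, 19.2 and 18.2 CPM with AMP, 1.55-fold and 1.46-fold higher (edgeR adjusted p = 2.01e-06 and 2.53e-05).

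Pdk4 and Pdk2 phosphorylate pyruvate dehydrogenase and so spare glucose carbon when fatty acids are burned. In CFs at 24 h Pdk4 was at 16.3 and 15.6 CPM with vehicle, 21.4 and 19.6 CPM with ENPP1+ATP and 20.0 and 20.5 CPM with AMP. At 48 h it was at 18.2 and 18.7 CPM with vehicle, 60.8 and 67.0 CPM with ENPP1+ATP and 59.0 and 67.4 CPM with AMP. It rose 1.28-fold and 1.26-fold at 24 h and 3.46-fold and 3.42-fold at 48 h (edgeR adjusted p = 0.000992, 0.00121, 4.86e-15 and 5.12e-15), with no overlap with vehicle. ATP MCndM lowered Pdk4, to 10.7 and 9.75 CPM at 24 h and 13.4 and 14.9 CPM at 48 h, by 0.64 and 0.38 on the log2 scale (edgeR adjusted p = 1.4e-05 and 0.00461). Pdk4 thus lay below vehicle with ATP and above it with ENPP1+ATP at both times. In NRVMs the same gene was at 7.15, 8.27 and 9.20 CPM with vehicle, 14.1, 16.5 and 14.3 CPM with ENPP1+ATP, 14.02, 15.3 and 16.8 CPM with AMP and 17.1, 17.1 and 17.1 CPM with ATP, so that all 3 nucleotide media raised it, by 1.83-fold, 1.88-fold and 2.09-fold. Pdk2 rose 1.67-fold and 1.56-fold in NRVMs with ENPP1+ATP and AMP, from 111 to 116 CPM with vehicle to 180 to 204 and 163 to 187 CPM, and was called in no CF comparison with vehicle.

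The uncoupling protein Ucp2 was at 240 to 247 CPM with vehicle in NRVMs, 352 to 377 CPM with ENPP1+ATP and 352 to 356 CPM with AMP, 1.51-fold and 1.45-fold higher (edgeR adjusted p = 3.29e-16 and 7.36e-15). In CFs it lay between 1.67 and 4.25 CPM and was not called. Ucp3 was under 0.25 CPM in every bulk library and at 0 in 14 of the 15 NRVM libraries. Mlycd, malonyl-CoA decarboxylase, removes the inhibitor of carnitine palmitoyltransferase 1. It was called in no CF comparison with vehicle. In NRVMs it was at 74.9, 79.8 and 80.6 CPM with vehicle, 73.0, 71.1 and 71.5 CPM with ENPP1+ATP and 70.9, 69.0 and 65.8 CPM with AMP, without overlap, and was lower by 0.13 and 0.19 on the log2 scale (edgeR adjusted p = 0.0359 and 0.00143). The ENPP1+ATP call was lost without any one of ENPP1+ATP replicates 1, 2 and 3 or vehicle replicates 2 and 3 (edgeR adjusted p = 0.052 to 0.13).

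**Figure D4:**
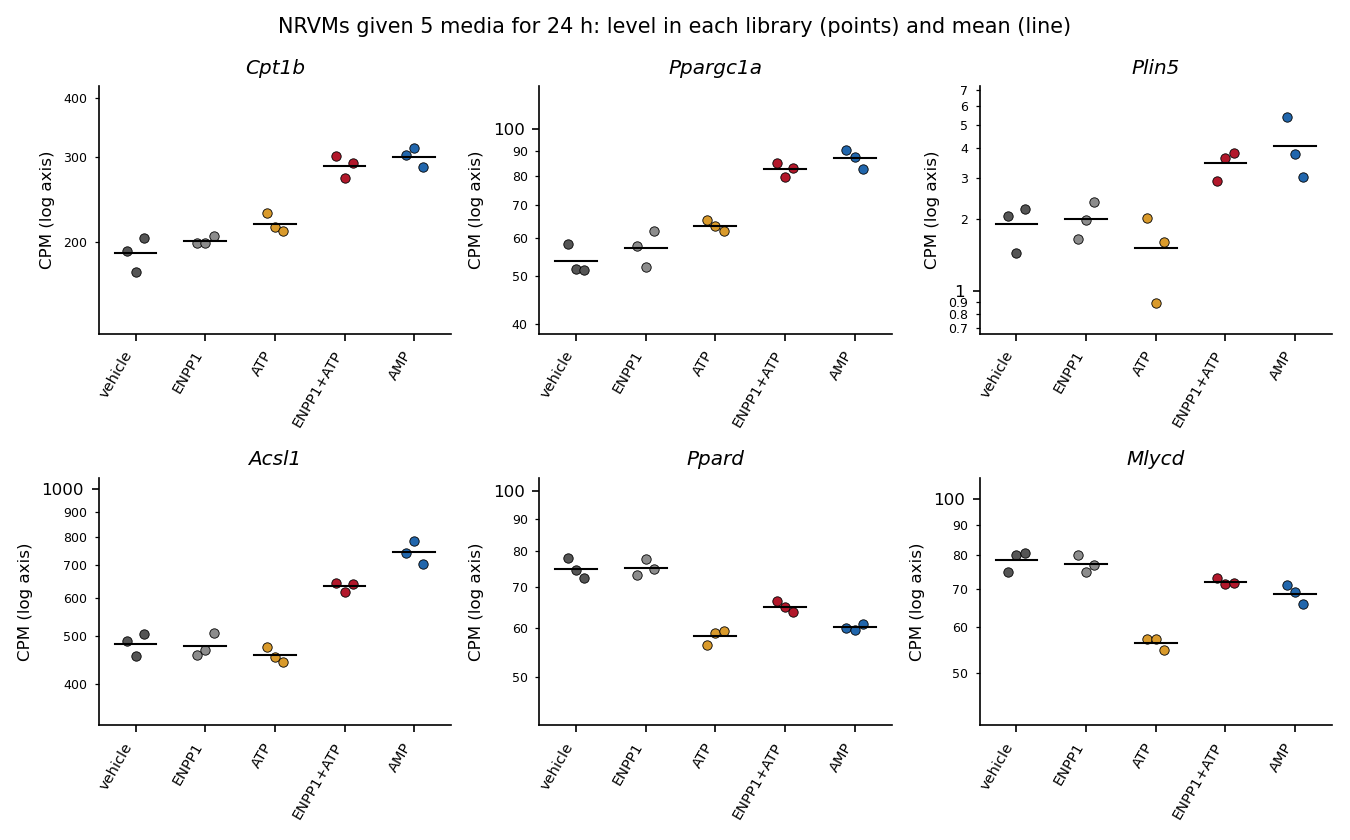
CPM on a log axis of 6 genes in each of the 15 NRVM libraries (points), by medium, with the mean of each group as a line. Cpt1b, Ppargc1a, Plin5 and Acsl1 stand above vehicle with ENPP1+ATP and AMP, and Ppard and Mlycd below it, lowest for Mlycd with ATP at 54.9 to 57.3 CPM.

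The regulators moved differently in the 2 cell types. Ppard, the PPAR that most cells express, rose in CFs from 77.4 and 74.5 CPM with vehicle to 109 and 108 CPM with ENPP1+ATP and 131 and 122 CPM with AMP at 24 h. At 48 h it went from 72.7 and 77.7 CPM with vehicle to 119 and 126 CPM with ENPP1+ATP and 119 and 129 CPM with AMP. No group overlapped vehicle, and the rises were 1.43-fold and 1.66-fold at 24 h and 1.63-fold and 1.65-fold at 48 h (edgeR adjusted p = 6.26e-08, 1.09e-10, 4.08e-10 and 2.56e-10). The effect of neither medium on Ppard was called different between the times. In NRVMs Ppard was at 77.8, 74.5 and 72.3 CPM with vehicle, 66.4, 64.9 and 63.7 CPM with ENPP1+ATP and 59.95, 59.6 and 60.9 CPM with AMP, and fell by 0.20 and 0.32 on the log2 scale (edgeR adjusted p = 0.000805 and 1.52e-06).

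Ppargc1a, the coactivator, fell in CFs from 7.58 and 6.89 CPM with vehicle to 3.01 and 4.14 CPM with ENPP1+ATP and 3.40 and 2.58 CPM with AMP at 24 h, with log2 fold changes of -1.02 ± 0.17 and -1.302 ± 0.167 (edgeR adjusted p = 1.5e-05 and 3.68e-07). The 48 h libraries were at 9.43 and 8.51 CPM with vehicle, 6.84 and 6.17 CPM with ENPP1+ATP and 6.32 and 7.09 CPM with AMP, lower by 0.46 and 0.42 (edgeR adjusted p = 0.0205 and 0.035). The first of these 48 h calls was lost without ENPP1+ATP replicate 2 or vehicle replicate 1 (edgeR adjusted p = 0.113 and 0.155), and the second without any one of the 4 libraries (edgeR adjusted p = 0.0546 to 0.223) and with DESeq2 (adjusted p = 0.067). In NRVMs Ppargc1a rose from 58.3, 51.8 and 51.5 CPM with vehicle to 85.4, 79.7 and 83.1 CPM with ENPP1+ATP and 90.7, 87.8 and 82.9 CPM with AMP, 1.53-fold and 1.62-fold (edgeR adjusted p = 3.53e-12 and 1.14e-13). Neither medium overlapped vehicle in either cell type, and both stood below vehicle in CFs and above it in NRVMs.

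Ppara, the PPAR of oxidative tissue, was low in CFs. It was at 1.79 and 2.21 CPM with vehicle at 24 h, 1.74 and 1.15 CPM with ENPP1+ATP and 1.63 and 0.928 CPM with AMP, and was not called. Without AMP replicate 1 the 24 h AMP effect was called, at -1.09 on the log2 scale (edgeR adjusted p = 0.015). At 48 h it was at 2.49 and 1.89 CPM with vehicle, 0.987 and 1.08 CPM with ENPP1+ATP and 1.13 and 0.610 CPM with AMP, and fell by 1.08 ± 0.32 and 1.34 ± 0.33 (edgeR adjusted p = 0.0078 and 0.00165). These calls were lost without vehicle replicate 1 for ENPP1+ATP and without AMP replicate 2 for AMP (edgeR adjusted p = 0.097 and 0.056). In NRVMs Ppara was at 22.8, 19.5 and 19.4 CPM with vehicle, 24.2, 24.2 and 24.0 CPM with ENPP1+ATP and 24.2, 22.5 and 20.9 CPM with AMP, and was called with ENPP1+ATP alone, at 1.17-fold (edgeR adjusted p = 0.0258). That call was lost without ENPP1+ATP replicate 1 or 2 or vehicle replicate 2 or 3 (edgeR adjusted p = 0.054 to 0.11) and with DESeq2 (adjusted p = 0.071).

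The single agents give the background of these comparisons. ENPP1 MCndM gave 0 called members at 24 h and 0 at 48 h in CFs (0% and 0% of all genes), with 2 and 0 members at an unadjusted p under 0.05 and 0 and 0 by DESeq2. ENPP1 gave 0 called members in NRVMs (0% of all genes), with 0 at an unadjusted p under 0.05 and 0 by DESeq2. ATP MCndM gave 6 called members at 24 h in CFs (11.1% of all genes), with Angptl4 and Plin2 higher (4.77%) and Pdk4, Acadm, Hadh and Eci2 lower (6.32%). At 48 h it gave 5 (7.83% of all genes), with Angptl4, Plin2 and Ppard higher (5.35%) and Pdk4 and Ppargc1a lower (2.48%). The 24 h count was 3 without ATP replicate 1, and the 48 h count was 3 without ATP replicate 1, ATP replicate 2 or vehicle replicate 1. In NRVMs ATP gave 22 called members (59.9% of all genes), 15 higher and 7 lower (30.2% and 29.7% of all genes), with the cardiomyocyte markers at 16641 to 17849 CPM against 27065 to 27937 with vehicle. The fibroblast markers were at 10382 to 11715 CPM against 24762 to 26150 with vehicle. Of 9 tested endothelial markers 5 were called higher and 0 lower, and of 5 macrophage markers 3 and 0. The part of these shifts in the members' values was not tested.

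Set against ATP instead of vehicle, ENPP1+ATP gave 20 called members in CFs at 24 h (43.9% of all genes), 11 higher and 9 lower (21.8% and 22.1% of all genes), 19 at 48 h (39.5%), 13 higher and 6 lower (18.2% and 21.3%), and 22 in NRVMs (27.5%), 22 higher and 0 lower (14.1% and 13.5%). In that NRVM comparison 7 of 9 tested cardiomyocyte markers were also called higher and 0 lower, with a median log2 fold change of 0.28 beside 0.23 for the members, while 4 of 9 endothelial and 3 of 5 macrophage markers were called lower and 1 and 0 higher. The cardiomyocyte markers summed to 16641 to 17849 CPM with ATP and 25387 to 26549 CPM with ENPP1+ATP, and their part in the members' values was not tested. The largest rises over ATP at 48 h in CFs were those of Angptl4 (34.7-fold), Pdk4 (4.51-fold), Plin2 (2.70-fold), Cpt1a (2.503-fold) and Acadl (2.13-fold). In NRVMs the 22 include Plin5 (2.30-fold), Acaa1a (1.43-fold), Ppara (1.41-fold), Etfdh (1.39-fold) and Acsl1 (1.39-fold). Mlycd and Ppard, which were lower than vehicle with both media, were higher with ENPP1+ATP than with ATP by 0.35 and 0.16 on the log2 scale (edgeR adjusted p = 1.09e-06 and 0.0187). These comparisons use the same ENPP1+ATP libraries as those with vehicle.

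AMP and ENPP1+ATP were also compared directly. In CFs at 24 h 4 members were called (6.25% of all genes): Angptl4 and Ppard were higher with AMP, by 0.42 and 0.22 on the log2 scale, and Cpt1a and Acsl1 lower, by 0.22 and 0.25. That count was 0 without ENPP1+ATP replicate 1 and 2 without ENPP1+ATP replicate 2. Of 9 tested fibroblast markers 5 were also called lower with AMP and 0 higher. At 48 h 0 members were called (0.162% of all genes), with 3 at an unadjusted p under 0.05 and 0 by DESeq2. In NRVMs 6 were called (9.66% of all genes), with Acsl1, Etfdh, Acadl and Etfb higher with AMP and Plin2 and Cpt1a lower, the largest difference being that of Plin2. Of 9 tested cardiomyocyte markers 4 were also called higher with AMP and 0 lower (median log2 fold change 0.21), and of 9 fibroblast markers 3 and 0. The part of these marker shifts in the members' values was not tested.

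Other genes of the pathway, listed by function, were counted in the same fits. Of 17 tested genes of fatty acid uptake and activation in CFs, ENPP1+ATP raised 3 and lowered 9 at 24 h and raised 1 and lowered 9 at 48 h, and AMP raised 2 and lowered 9 at 24 h and raised 1 and lowered 10 at 48 h. Acss2, which activates acetate, fell by 1.80 ± 0.11 at 24 h and 3.19 ± 0.12 at 48 h with ENPP1+ATP, and Acsl3, an acyl-CoA synthetase of lipid droplets and the endoplasmic reticulum, fell by 1.88 ± 0.07 at 48 h. In NRVMs 4 rose and 7 fell of 16 with ENPP1+ATP and 6 rose and 7 fell with AMP, with Acsl6 higher by 2.14 ± 0.22 and 2.10 ± 0.22 and Acsl3 lower by 1.26 ± 0.05 and 1.13 ± 0.05. Over all genes 20.8% to 25.3% were called higher and 22.9% to 27.5% lower in these CF comparisons, and in NRVMs 28.6% and 29.2% higher and 27.4% and 28% lower.

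Among 16 tested lipid droplet and lipolysis genes in CFs, 4 rose and 3 fell at 24 h with ENPP1+ATP and 5 rose and 4 fell with AMP, and at 48 h 9 rose and 5 fell with ENPP1+ATP and 8 rose and 5 fell with AMP. Lipe, hormone-sensitive lipase, rose by 1.42 ± 0.10 and 1.25 ± 0.10 at 48 h, and Pnpla3 fell, with log2 fold changes of -4.60 ± 0.48 and -4.47 ± 0.46. In NRVMs 7 rose and 3 fell of 17 with ENPP1+ATP and 9 rose and 2 fell with AMP, with Plin4 higher by 0.78 ± 0.10 and 0.83 ± 0.10. Of 31 peroxisomal and auxiliary oxidation genes in CFs, 10 rose and 12 fell at 24 h and 9 rose and 15 fell at 48 h with ENPP1+ATP, and 8 rose and 16 fell, then 10 rose and 12 fell, with AMP. Acaa1b, a copy of the member Acaa1a, rose by 3.20 ± 0.19 and 3.39 ± 0.19 at 48 h, while Echs1, the short-chain enoyl-CoA hydratase, fell by 1.24 ± 0.08 and by 1.23 ± 0.08 at the same time. In NRVMs 14 rose and 5 fell of 30 with ENPP1+ATP and 16 rose and 2 fell with AMP, with Cpt1c higher by 1.13 ± 0.11 and 1.45 ± 0.11. For both lists the shares of all genes were 20.8% to 25.3% higher and 22.9% to 27.5% lower in CFs. They were 28.6% and 29.2% higher and 27.4% and 28% lower in NRVMs.

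Nuclear receptors and coregulators, 27 tested in each cell type, counted 9 higher and 6 lower at 24 h and 12 higher and 4 lower at 48 h with ENPP1+ATP in CFs, 9 and 8, then 10 and 5, with AMP, and in NRVMs 15 and 2 with ENPP1+ATP and 8 and 3 with AMP. Prkaa2, a catalytic subunit of AMP-activated kinase, rose by 1.25 ± 0.14 and 1.31 ± 0.14 in CFs at 48 h, and Nr1h3, the liver X receptor alpha, rose by 1.46 ± 0.16 and 1.28 ± 0.17 in NRVMs. Of 14 genes of malonyl-CoA, pyruvate dehydrogenase and ketone body metabolism, 3 rose and 6 fell at 24 h and 1 rose and 10 fell at 48 h with ENPP1+ATP in CFs, 3 and 8, then 2 and 9, with AMP, and in NRVMs 7 and 3, and 8 and 3. Acaca, acetyl-CoA carboxylase 1, which makes malonyl-CoA, fell by 0.97 ± 0.05 and 1.22 ± 0.05 in CFs at 24 h and by 1.07 ± 0.05 and 0.80 ± 0.05 in NRVMs. Of the 6 tested thioesterases that are not members, 2 rose and 1 fell at 24 h with either medium, 2 rose and 1 fell at 48 h with ENPP1+ATP and 3 rose with AMP in CFs, and in NRVMs 3 rose and 2 fell with ENPP1+ATP and 3 rose and 3 fell with AMP. Beside these lists, 20.8% to 25.3% of all genes were called higher and 22.9% to 27.5% lower in CFs. In NRVMs the shares of all genes were 28.6% and 29.2% higher and 27.4% and 28% lower.

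In the single-cell libraries, 7255 ENPP1CKO and 5240 control cells were kept, with medians of 3367 and 3701 counts, and 68 barcodes occur in both libraries. With 1 library per genotype no test between genotypes was made, and intervals cover counting error only. A member was compared in a cell class where it had at least 20 counts in both libraries together, and was counted as higher or lower where its CPM ratio reached 1.5-fold with a 95% exact binomial interval excluding 1. Among fibroblast-like cells Enpp1 itself had 1347 counts (130 CPM) in the control library against 473 (28.7 CPM) in that of ENPP1CKO. Cardiomyocyte marker RNA was higher in ENPP1CKO in the 3 largest classes, at 35.2 against 15.5 CPM in fibroblast-like, 40.1 against 14.2 in macrophage-like and 59.8 against 19.6 in endothelial-like cells. Cardiomyocyte-like cells (31 and 11) held 6521 and 7699 CPM of the summed members, against 741 to 2256 CPM in the other classes, and the part of that RNA in the values that follow was not tested.

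In fibroblast-like cells (3713 ENPP1CKO and 1852 control) 29 of the 35 members were compared, and 1 was counted as higher (4.79% of all genes) and 1 as lower (5.63% of all genes). With each cell thinned to 1000 counts the higher count was 0 (3.84% of all genes), and with the median of all genes subtracted the lower count was 2, Angptl4 being added. Thinning removes counts, and a member left with under 20 is no longer compared. A call lost on thinning therefore does not show that the ratio changed. Pdk4 had 41 counts in ENPP1CKO and 7 in control (2.49 against 0.676 CPM), a log2 ratio of 1.88 with an interval of 0.71 to 3.28. Mlycd had 51 and 102 counts (3.09 against 9.85 CPM), a log2 ratio of -1.67 (-2.19 to -1.17). The summed members were at 1140 and 1236 CPM, and the median member differed by -0.07 on the log2 scale against 0.01 for all genes.

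For Angptl4 the fibroblast-like cells held 105 CPM in the control library and 70.6 CPM in that of ENPP1CKO, which is -0.58 as a log2 ratio (-0.70 to -0.46). Its direction differed among the clusters that make up the class. In the cluster led by Ccn5 (1292 and 1280 cells) Angptl4 was at 72.2 against 116 CPM, in the cluster led by Clec3b (1559 and 366 cells) at 88.8 against 68.5 CPM, and in the cluster led by Thbs4 (693 and 57 cells) at 41.7 against 13.6 CPM, the last from 5 counts. In the smaller clusters led by Ifit3 (120 and 85 cells) and Ube2c (49 and 64 cells) it was at 65.6 against 105 CPM and 45.4 against 116 CPM. The clusters are shared unevenly between the libraries, so the value for the class mixes levels within clusters with the share of each cluster. Within the Ccn5-led cluster alone Angptl4 and Mlycd were counted as lower, with log2 ratios of -0.69 and -1.43 (4.92% of all genes in that cluster), and Pdk4 as higher, at 1.97 (3.02% of all genes). Among the enzymes Cpt1a had a log2 ratio of 0.24 (0.01 to 0.48), Acaa2 0.21 (0.04 to 0.38), Eci2 -0.36 (-0.49 to -0.22) and Acaa1a -0.29 (-0.42 to -0.16). Of the 29 members 3 had an interval wholly above equal levels (Pdk4, Cpt1a and Acaa2) and 8 wholly below (Mlycd, Angptl4, Eci2, Acaa1a, Slc25a20, Acadvl, Hadhb and Etfb). The share of all genes with such intervals was not counted, so these counts are no result about the members. Plin2 was at 56.8 and 61.6 CPM and Ppard at 5.58 and 4.83 CPM, with intervals that include equal levels.

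In macrophage-like cells (2054 and 2471) 28 members were compared, with 0 higher (2.58% of all genes) and 5 lower in ENPP1CKO (10.3% of all genes), and 3 lower with each cell thinned to 1000 counts (12.5% of all genes). The 5 were Mlycd (2.11 against 7.65 CPM), Ppard (6.31 against 11.5 CPM), Angptl4 (5.89 against 10.5 CPM), Cpt2 (3.79 against 6.70 CPM) and Cpt1a (20.2 against 35.6 CPM), with log2 ratios of -1.86, -0.87, -0.83, -0.82 and -0.82. Of the 4 macrophage-like clusters, 1 was shared very unevenly between the libraries, with 54 ENPP1CKO and 815 control cells. Without it 4 members were lower, Mlycd, Acot1, Ppard and Angptl4, beside 4.3% of all genes in the remaining cells, and Cpt1a was at -0.25 (-0.59 to 0.10). Plin2 was at 517 and 721 CPM in macrophage-like cells, a log2 ratio of -0.48 (-0.54 to -0.42), and Ucp2 at 694 and 655 CPM, 0.08 (0.03 to 0.14). Without the unevenly shared cluster they were at -0.41 (-0.47 to -0.35) and 0.19 (0.13 to 0.25), and within it at -0.64 (-0.99 to -0.31) and -0.71 (-1.07 to -0.36). Of the 28 members 1 had an interval wholly above equal levels and 10 wholly below. The share of all genes with such intervals was not counted, and at 1.5-fold more of all genes were lower (10.3%) than higher (2.58%). The median member differed by -0.19, against -0.13 for all genes.

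In endothelial-like cells (932 and 192) 22 members were compared, with 0 higher (4.89% of all genes) and 1 lower (6.28% of all genes). That member was Angptl4, at 43.0 against 109 CPM, a log2 ratio of -1.34 (-1.85 to -0.83). The median cell held 1472.5 counts in ENPP1CKO and 2602.5 in control. Cpt2 had the highest ratio, 0.77 (-0.80 to 2.77), an interval that includes equal levels. Plin5, Cpt1b, Ucp3, Ehhadh, Ppara and Ppargc1a had under 20 counts in each of the 3 classes, and Pdk4 had under 20 outside fibroblast-like cells.

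**Figure D5:**
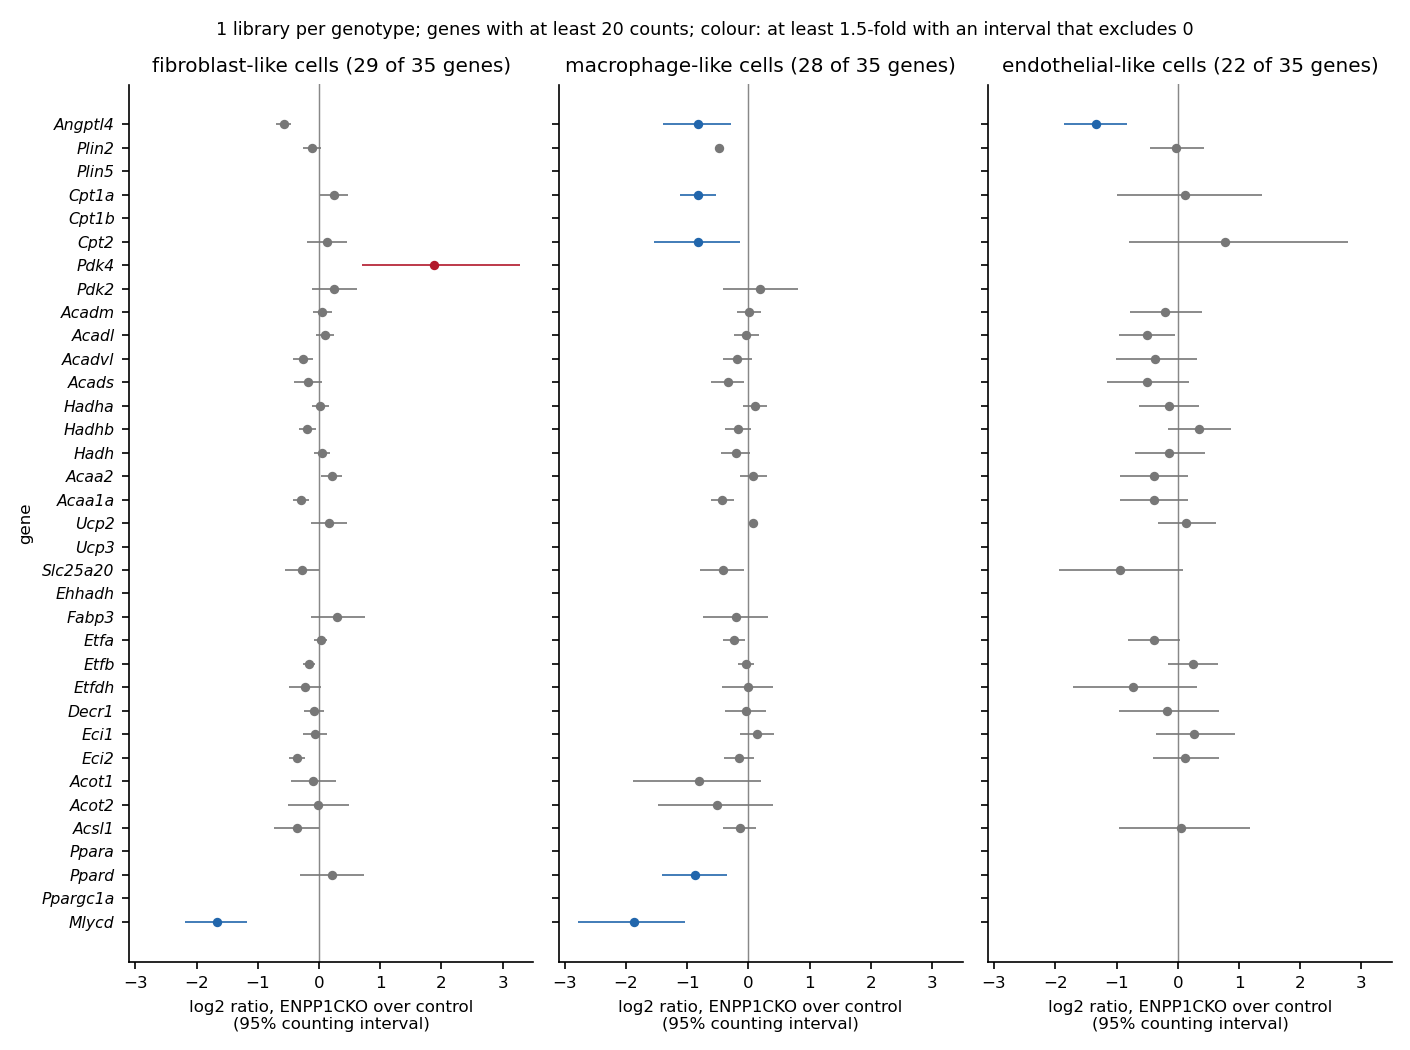
Log2 ratio of CPM, ENPP1CKO over control, with its 95% counting interval for each gene with at least 20 counts in fibroblast-like, macrophage-like and endothelial-like cells. Red marks the 1 gene counted as higher (Pdk4) and blue those counted as lower (1, 5 and 1), and Angptl4 lies below 0 in all 3 classes.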

How the data were processed

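The authors deposited raw counts per gene for the CF and NRVM libraries and raw UMI counts per gene and cell for the 2 single-cell libraries. The submitters' processing notes name STAR 2.5.3a, Cell Ranger, mm10 and rn6. The 35 members and the pathway and marker lists were chosen with earlier results of these data known.

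Bulk counts were fitted per cell type with edgeR 4.0.16 (R 4.3.3; TMM, filterByExpr, robust quasi-likelihood, 1 mean per group), with Benjamini-Hochberg adjustment over all genes tested and a threshold of 0.05. Each SE is the log2 fold change divided by the square root of the F statistic of its own test, and the SE of a difference between times comes from its own test. Mean log2 CPM used a prior count of 2. The difference between times is an interaction of medium and time. The members named by rule were, for each comparison with vehicle, up to 5 called members in each direction, largest first, whose mean log2 CPM was not below 0, and always Ppara, Ppard, Ppargc1a, Angptl4, Pdk4, Plin2, Cpt1a and Cpt1b. The other members are described for their place in the pathway. From each pathway list up to 3 genes past the threshold were named by size; some results are not reported here.

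Barcodes under 200 genes or over 20% mitochondrial counts were dropped, doublets predicted by Scrublet were removed (2.02% and 1.29% of barcodes), and cells were clustered with scanpy 1.11.5 (2000 variable genes, 30 components, 15 neighbours, Leiden resolution 0.5). Clusters were named by markers, and counts were summed per library and class.

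Alternatives were RLE size factors, DESeq2 1.42.0, no filter on low counts, a replicate block, each library left out, resolution 1.0, all genes in the clustering, doublets kept, cells thinned to 1000 counts and the median of all genes subtracted. Restricting the macrophage-like and fibroblast-like classes to some of their clusters was chosen after seeing the data.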

Additional observations from a re-analysis of the deposited data

Results flagged for a closer look

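Effects that differed between 24 h and 48 h in CFs, by the interaction test of edgeR, are given as the 48 h effect minus the 24 h effect on the log2 scale. For ENPP1+ATP the differences were 3.82 for Angptl4, 1.45 for Plin2, 1.44 for Pdk4, 1.14 for Cpt1a, 0.99 for Fabp3, 0.93 for Acaa2, 0.80 for Acadl, 0.66 for Slc25a20, 0.50 for Eci2, 0.49 for Decr1 and 0.18 for Etfdh. They were -0.48 for Hadhb, -0.39 for Acsl1 and -0.22 for Hadha. For AMP, which shares its vehicle libraries with ENPP1+ATP, they were 3.47 for Angptl4, 1.55 for Plin2, 1.52 for Etfb, 1.44 for Pdk4, 1.43 for Cpt1a, 1.03 for Acaa2, 1.02 for Fabp3, 0.88 for Ppargc1a, 0.87 for Acadl, 0.87 for Slc25a20 and 0.66 for Eci2. Smaller differences for AMP were 0.55 for Decr1, 0.48 for Acaa1a, 0.46 for Hadh, 0.35 for Cpt2, 0.35 for Etfdh, 0.31 for Acadvl, 0.31 for Acads and -0.33 for Hadhb. A positive difference includes members that were lower than vehicle at 24 h and nearer to it at 48 h, such as Fabp3, Decr1 and Ppargc1a. The part of dying or surviving CFs in these differences was not tested.

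The members below were called in opposite directions in CFs at 24 h and in NRVMs, with no sample of either medium on the other side of vehicle. The difference between the cell types was not tested, and the share of all genes called in opposite directions was not counted. In CFs at 24 h 23.9% and 25.3% of all genes were called higher and 25.3% and 27.5% lower with ENPP1+ATP and AMP. In NRVMs these shares were 28.6% and 29.2% higher and 27.4% and 28% lower. With ENPP1+ATP the log2 fold changes in CFs and NRVMs were -0.29 and 0.47 for Acads, -0.48 and 0.32 for Hadh, -0.68 and 0.36 for Fabp3, -1.23 and 0.21 for Etfb, -1.01 and 0.63 for Acot2, 0.52 and -0.20 for Ppard, and -1.02 and 0.62 for Ppargc1a. With AMP they were -0.28 and 0.60 for Acads, -0.67 and 0.43 for Hadh, -0.16 and 0.44 for Acaa2, -1.06 and 0.47 for Fabp3, -0.71 and 0.54 for Acot2, 0.73 and -0.32 for Ppard, and -1.30 and 0.69 for Ppargc1a. In the single-cell libraries Cpt1a had a log2 ratio of ENPP1CKO over control of 0.24 in fibroblast-like and -0.82 in macrophage-like cells, a difference that was not tested and that, without the macrophage-like cluster of 54 ENPP1CKO and 815 control cells, was between 0.24 and -0.25.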

How the results depend on the processing

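Of 266 counts of members under alternatives 249 were within 1.5 times the main count, and of 674 values of named members 626 kept their direction and side of the threshold, 43 no longer passed it, 1 newly passed it and 4 turned direction. These 4 were uncalled values of Cpt1b, under 1 CPM in CFs, whose log2 fold change with 1 library left out ranged from -0.35 to 0.16 for ENPP1+ATP and from -0.82 to 0.089 for AMP at 24 h and from -1.11 to 0.79 for ENPP1+ATP at 48 h. Leaving out 1 library gave 3 to 4 in place of 6 called members for ATP in CFs at 24 h, 0 to 3 in place of 4 for AMP against ENPP1+ATP at 24 h, 5 to 7 in place of 9 lower for ENPP1+ATP at 48 h, 3 to 5 in place of 7 lower for AMP at 48 h, 3 to 4 in place of 5 for ATP at 48 h and 1 to 2 in place of 3 lower for ENPP1+ATP in NRVMs. The cause was not tested beyond the smaller number of libraries. With cells thinned to 1000 counts the higher count in fibroblast-like cells was 0 in place of 1 and the lower count in macrophage-like cells 3 in place of 5. Thinning can leave a member with too few counts to be compared, so these lower numbers do not show that ratios changed. The lower count in fibroblast-like cells was 2 in place of 1 with the median of all genes subtracted and 2 in the Ccn5-led cluster alone.

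Replicate numbers gave little sign of pairing. Over 90 same-numbered pairs of CF groups the deviations correlated at -0.112 to 0.277 (median 0.0125), with 6 pairs over 0.1. Over 30 pairs of NRVM groups they correlated at -0.166 to 0.124 (median 0.0143), with 1 pair over 0.1. In a CF group of 2 libraries the deviations mirror each other, so the CF pairs repeat each value and are not all separate. With the replicate number as a block the counts of called members went from 5 to 6 for ATP in CFs at 48 h, from 14 to 17 for the difference of times with ENPP1+ATP, from 22 to 21 for ENPP1+ATP against ATP in NRVMs and from 10 to 9 lower for AMP at 24 h in CFs, and the other counts were equal. With 2 libraries per CF group, calls of low genes such as Ppara, Fabp3, Etfb and Acot1, under 3 CPM with vehicle, rest on low levels in few libraries. Having 1 library per genotype leaves the single-cell ratios with counting error only.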
